A study of Gossypium hirsutum with 6 samples.

Results

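In cotton leaves held at 45 °C, 92 of 421554 assembled transcripts were far higher in 1 library than in the other 5. They were chosen by 2 limits, a level of 10 RPKM or more in the heat tolerant genotype after 8 h of heat and a level there more than 10 times the highest of the 5 other libraries. RPKM counts the reads of a transcript per unit of its length and per unit of its library's size. All 6 libraries entered that choice, so the levels of these transcripts are a description of what was chosen and carry no test. Of the 92, 82 were below 10 RPKM in all 5 other libraries. The fold limit forces this on every member below 100 RPKM in the chosen library, so nothing is read from that count. Of 10958 transcripts at 10 RPKM or more in the N 8 h library, these were the 92 that also met the fold limit. With median-of-ratios scaling of the libraries the same limits gave 304 transcripts, and with upper-quartile scaling 158, and all 92 were among both.

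The leaves came from seedlings of upland cotton, *Gossypium hirsutum*, at an age of about 20 days, raised in days of 14 h light at 28 °C and nights at 22 °C. Nan Dan Ba Di Da Hua, labelled heat tolerant, and Earlistaple 7, labelled heat sensitive, were each sampled as a 28 °C control and after 4 and 8 h at 45 °C. The titles call the genotypes N and E, the names used from here on. All seedlings stood in sand and soil with Hoagland's solution, and heat began in the middle of the day. Each of the 6 groups held 1 library, so the spread between plants is unknown, no p-value is given, and no difference could be set against replicate error. The labels do not say at what hour the control leaves were cut, so the length of the heat and the clock hour cannot be told apart. In whole leaves, more cells of a type and more RNA per cell cannot be told apart either.

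Plants answer heat through heat stress transcription factors, which switch on genes for chaperones and other proteins that keep proteins folded. The response comes in waves, and leaves also lower much of the machinery of photosynthesis while it runs. The identifiers here are those of a de novo assembly, in which transcripts are built from the reads without a genome and related ones are gathered in a component. None of the 92 (0 matched) could be paired with a gene of the Gossypium_hirsutum_v2.1 reference table, so no gene name, family or role is given to any of them.

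The N 8 h library held the lowest read depth of the 6, at 0.795 of the N control. The N 4 h library stood at 0.805, and the E control, 4 h and 8 h libraries at 1.13, 1.07 and 0.869. Depth was recovered from the spacing of low values, since 1 read is worth a fixed step of RPKM for a given transcript. If each read was counted whole, a transcript's smallest value above 0 is worth at least 1 read, which sets a lower limit to the reads behind its N 8 h level. How reads shared between transcripts were assigned is not given in the sources used here, and if they were split, the true number can be lower than this limit. For 91 members this limit ran from 10 to 4917 reads with a median of 98, and it was under 20 reads for 20 of them. Where a member was above 0 in only 1 other library, the limit is its ratio to that library scaled by depth. The fold rule thus sets the low end near 10, and the spread of these limits does not measure read support. The labels give no batch, and the part of sequencing or library handling in the N 8 h levels was not tested.

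In the N 8 h library the members lay between 10.13 and 614.43 RPKM, with a median of 22.61 RPKM. There were 42 members below 20 RPKM and 10 at 100 RPKM or more, and these 10 held 56.2% of the members' summed RPKM. Their summed level was 30.69, 325.8 and 4833.77 RPKM in the N control, 4 h and 8 h libraries, and 11.09, 58.38 and 339.19 RPKM in the E ones. At 8 h they made up 0.583% of all RPKM in the N library and 0.0402% in the E library. The 10 highest members include 3 pairs with identical values in all libraries. Whether these sums and shares count the same reads more than once was not tested. The members were therefore a small part of the leaf RNA even where they were highest.

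**Figure D1:**
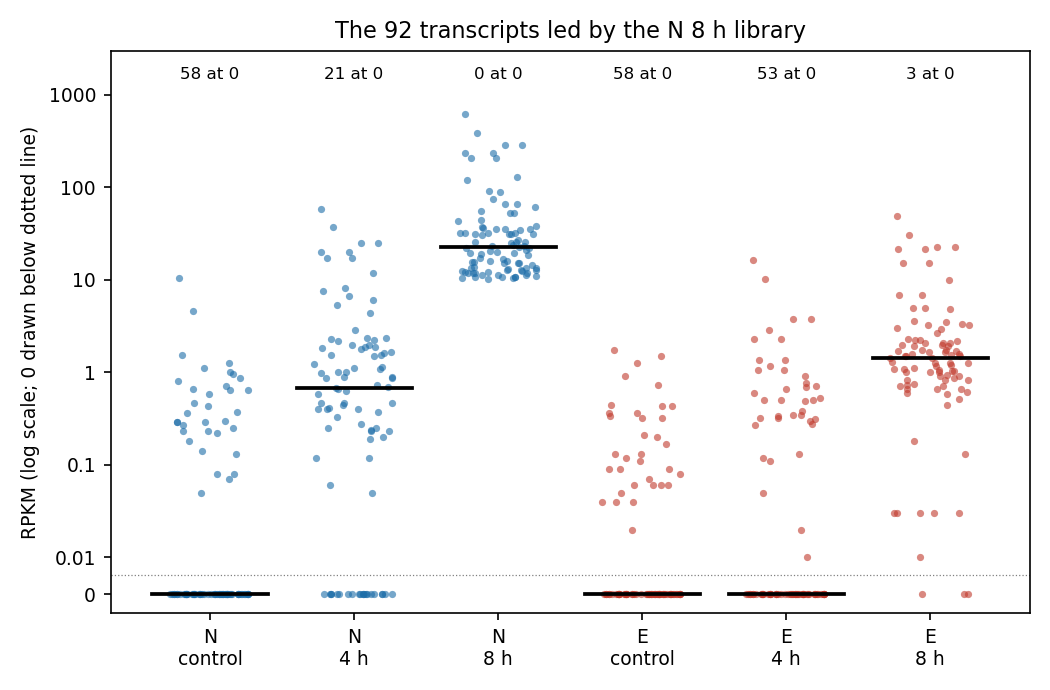
RPKM of the 92 transcripts in each of the 6 libraries on a log scale, with 1 point per transcript, a bar at the median, and values of 0 drawn below the dotted line. All members lie at 10.13 RPKM or more in the N 8 h library; the medians elsewhere are 0.675 RPKM (N 4 h), 1.44 RPKM (E 8 h) and 0 in the controls and the E 4 h library.

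The working name of the set calls these transcripts private to N at 8 h, and the data go against it if private means absent elsewhere. Of the 92 members, 91 were above 0 in at least 1 other library and 67 reached 1 RPKM there. Values above 0 are common. Of the 10958 transcripts at 10 RPKM or more in the N 8 h library, 96.3% were above 0 in the E control and 99.95% in the E 8 h library. In each other library the members were above 0 less often than that pool. The exception was comp66047_c0_seq1, at 12.76 RPKM in the N 8 h library and listed at 0 in all others. In the E 8 h library 89 of 92 members were above 0 (96.7%), near the 92.2% of all transcripts, with a median of 1.44 RPKM and a highest value of 48.97 RPKM. In the N 4 h library 71 were above 0 (77.2%), beside 90.8% of all transcripts, with a median of 0.675 RPKM. Fewer members were above 0 in the E 4 h library, 39 (42.4%) beside 89.4% of all transcripts. In the controls 34 members each were above 0 (37.0%), beside 87.3% of all transcripts in the N and 88.9% in the E control. The rule favours members at 0 elsewhere, so these shares are a description. At 10 RPKM or more were 9 members in the N 4 h, 8 in the E 8 h, 2 in the E 4 h and 1 in the N control library. Transcripts led by the N 8 h library is thus the closer description.

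The library next highest was a heated one for 89 members. It was the E 8 h library for 53 members and the N 4 h library for 36, while the N control came next for 2. A level of 1 RPKM was reached by 148293 transcripts in the E 8 h and 147583 in the N 4 h library. Elsewhere it was reached by 107290 to 120293. How often each library came next among all transcripts was not counted, so the order is a description. The ratio of the N 8 h level to that in the next highest library had a median of 12.2. Its quartiles were 11.2 and 18.4, so most members sat close above the limit of 10. There were 37 members under a ratio of 12 and 21 above 20. Raising the limit to 20, 50 and 100 left 22, 4 and 3 transcripts, counting the one listed at 0 elsewhere, and lowering it to 5 gave 437.

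**Figure D2:**
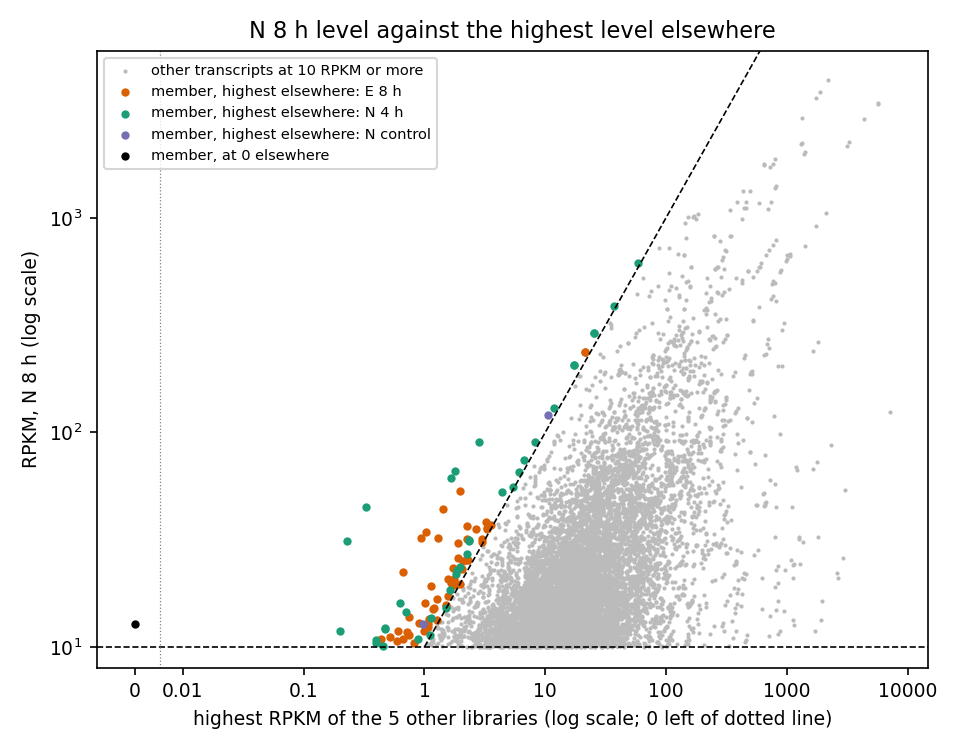
RPKM in the N 8 h library against the highest RPKM of the 5 other libraries, both on log scales, for transcripts at 10 RPKM or more in the N 8 h library. Coloured points are the 92 members by the library that came next, grey points the rest, and dashed lines the 2 limits; most members lie just left of the fold limit, at a median ratio of 12.2.

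The members nearest the limits show how little separates inside from outside. comp107546_c0_seq7 entered at 15.21 RPKM and a ratio of 10.07, while comp107546_c0_seq11 of the same component stayed out at 12.68 RPKM and a ratio of 9.98. In the same way comp106745_c0_seq7 entered at a ratio of 10.11 and comp106745_c0_seq3 stayed out at 9.79. The other nearest ones inside the fold limit were comp44638_c0_seq1 at 10.09 and comp100896_c0_seq2 at 10.25. The other nearest ones outside were comp265342_c0_seq1 at 9.79 and comp126167_c1_seq16 at 9.73.

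At the limit of level, comp94390_c0_seq4 at 10.13 RPKM, comp95734_c0_seq3 at 10.47, comp94390_c0_seq3 at 10.49 and comp73652_c0_seq1 at 10.72 RPKM were just inside. Just outside were comp63931_c0_seq1 at 9.83 RPKM, comp61548_c0_seq2 at 9.77, comp96551_c0_seq6 at 9.73 and comp41986_c0_seq1 at 9.67 RPKM, all past the fold limit. A further count shows how much of the fold rule lay at low levels, with 2057 transcripts past the fold limit and below 10 RPKM.

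The same 2 limits turned on each other library picked far fewer transcripts. The N 8 h library gave 92 transcripts of 70 components, the N control 16 of 11, the E control 2 of 2 and the E 8 h library 1. Both 4 h libraries gave 0. The pool that reached 10 RPKM, from which each count was drawn, was alike in all libraries, at 10958 in the N 8 h library and 10922 to 12307 in the others. Whether the difference between libraries exceeds the spread between plants was not tested.

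The E 8 h library set most of the boundary. Without it in the rule 472 transcripts met both limits, against 92 with it. Leaving out the N 4 h library gave 135, the N control 111, the E 4 h library 93 and the E control 92. The 380 transcripts kept out by the E 8 h library alone had medians of 22.4 RPKM in the N 8 h and 5.37 RPKM in the E 8 h library. Their ratio of N over E at 8 h ran from 1.40 to 9.79 with a median of 3.97, and 138 of them were at 5 or more. The E 8 h level of the members was lower, at a median of 1.44 RPKM, with 8 of 92 at 10 RPKM or more. Both sets were chosen on their N 8 h level, so nothing is read from their direction between genotypes.

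**Figure D3:**
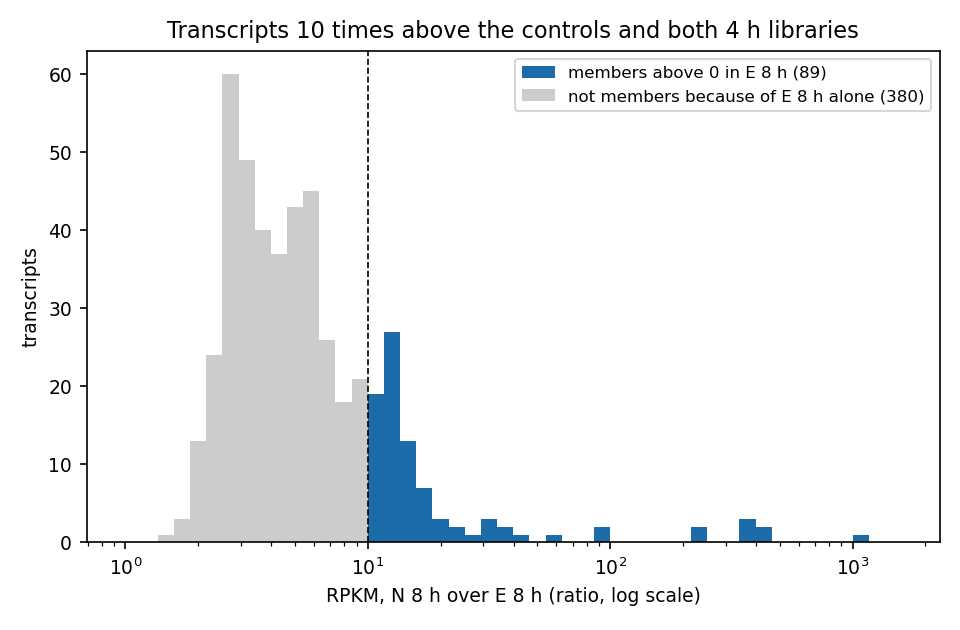
Number of transcripts by the ratio of RPKM in the N 8 h over the E 8 h library (log scale), for transcripts more than 10 times above both controls and both 4 h libraries. Blue bars are the 89 members above 0 in the E 8 h library and grey bars the 380 kept out by that library alone; the counts run on across the dashed limit of 10 without a gap.

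The 9 most abundant members were already above their control at 4 h in N. comp118254_c0_seq4, the last of the 10 members at 100 RPKM or more, was below it, at 7.51 against 10.45 RPKM. comp129012_c0_seq1, the highest, measured 0.29, 58.51 and 614.43 RPKM in the N control, 4 h and 8 h libraries, and 0.09, 16.48 and 48.97 RPKM in the E ones. comp129034_c0_seq1 came next, with 0.18, 36.94 and 386.18 RPKM in the N libraries and 0.05, 10.32 and 30.95 RPKM in the E libraries. Both were also the highest members in the N 4 h, the E 4 h and the E 8 h library, so they were highest throughout the heated libraries. The 9 members at 10 RPKM or more in the N 4 h library were the 9 highest of the N 8 h library. By the fold limit such a member had to exceed 100 RPKM in the N 8 h library. Only 10 members did, so this overlap is largely set by the rule. Each of the 9 was the only transcript of its component.

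Several of these had the same values. comp36365_c0_seq1 and comp38390_c0_seq1 both measured 0.08, 25.21 and 289.82 RPKM in the N libraries and 0, 3.79 and 22.76 RPKM in the E libraries. comp61292_c0_seq1 and comp66658_c0_seq1 both measured 0.29, 20.1 and 235.74 RPKM in the N libraries and 0.36, 2.3 and 21.45 RPKM in the E libraries. comp84896_c0_seq1 and comp95054_c0_seq1 both measured 0.23, 17.24 and 206.85 RPKM in the N libraries and 0.13, 1.35 and 15.14 RPKM in the E libraries. Identical values in all 6 libraries in 3 pairs of separate components mean that the members exceed the number of independent measurements.

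A further 2 pairs had nearly proportional values. comp129012_c0_seq1 stood at 1.58 to 1.60 times comp129034_c0_seq1 in the 4 heated libraries, and comp46069_c0_seq1 at 1.43 to 1.44 times comp47721_c0_seq1 in the N 4 h and both 8 h libraries. comp46069_c0_seq1 measured 0.07, 11.92 and 129.55 RPKM in the N libraries and 0.06, 0.49 and 9.95 RPKM in the E libraries. Over the 72 members above 0 in at least 3 libraries, 12 had a member with proportional values (within a distance of 0.02 on centred natural logarithms), 10 of them in another component. The 2 nearly proportional pairs above were not among these 12. Merging the 12 left 86 profiles out of 92, and a wider distance of 0.1, chosen after the data were seen, left 79. How reads were shared among transcripts was not tested.

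In unheated leaves the members were at low levels. Of the 92, 39 were above 0 in a control and 53 at 0 in both, and 6 reached 1 RPKM in a control. comp118254_c0_seq4 was the highest of these and the only one at 10 RPKM or more in a control. It measured 10.45, 7.51 and 120.86 RPKM in the N control, 4 h and 8 h libraries, and 0.44, 0.27 and 6.89 RPKM in the E ones. It was thus lower at 4 h than in the control in N, and highest at 8 h in both genotypes, which the rule fixes in N. Its E control and 4 h values were both below 1 RPKM, so nothing is read from their order. comp98949_c0_seq1 measured 4.66, 5.36 and 55.38 RPKM in the N libraries and 0.91, 2.9 and 4.97 RPKM in the E libraries.

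The members highest in the E control differed little between the controls. comp44638_c0_seq1 measured 1.56, 0.88 and 19.77 RPKM in the N libraries and 1.75, 1.06 and 1.96 RPKM in the E libraries, so only the N 8 h library stood apart. comp108152_c0_seq1 measured 1.25, 6.07 and 65.49 RPKM in the N libraries and 1.52, 0.91 and 4.84 RPKM in the E libraries.

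The members formed 3 main groups by the libraries in which they were above 0. The broad group of 47 was above 0 in a control or in the E 4 h library, and 29 of these were above 0 in all 6 libraries. Its medians were 31.0 RPKM in the N 8 h, 1.87 RPKM in the N 4 h and 1.96 RPKM in the E 8 h library. The N 4 h group of 25 was above 0 in the N 4 h and both 8 h libraries alone, with medians of 17.25, 0.4 and 0.94 RPKM in the N 8 h, N 4 h and E 8 h libraries. The 8 h group of 18 was above 0 in both 8 h libraries alone, with medians of 15.59 RPKM in the N 8 h and 1.12 RPKM in the E 8 h library. A value of 0 at low depth does not show that a transcript was absent.

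The 8 h group had no value above 0 at 4 h in either genotype. It was led by comp97756_c0_seq7, at 53.24 RPKM in the N 8 h and 1.98 RPKM in the E 8 h library, and comp95793_c0_seq3, at 36.77 and 2.24 RPKM. comp95793_c0_seq1, a second transcript of that component, measured 22.38 RPKM in the N 8 h and 0.66 RPKM in the E 8 h library. The E values of the group ran from 0.52 to 2.24 RPKM, and 11 of its 18 members were the only transcript of their component.

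**Figure D4:**
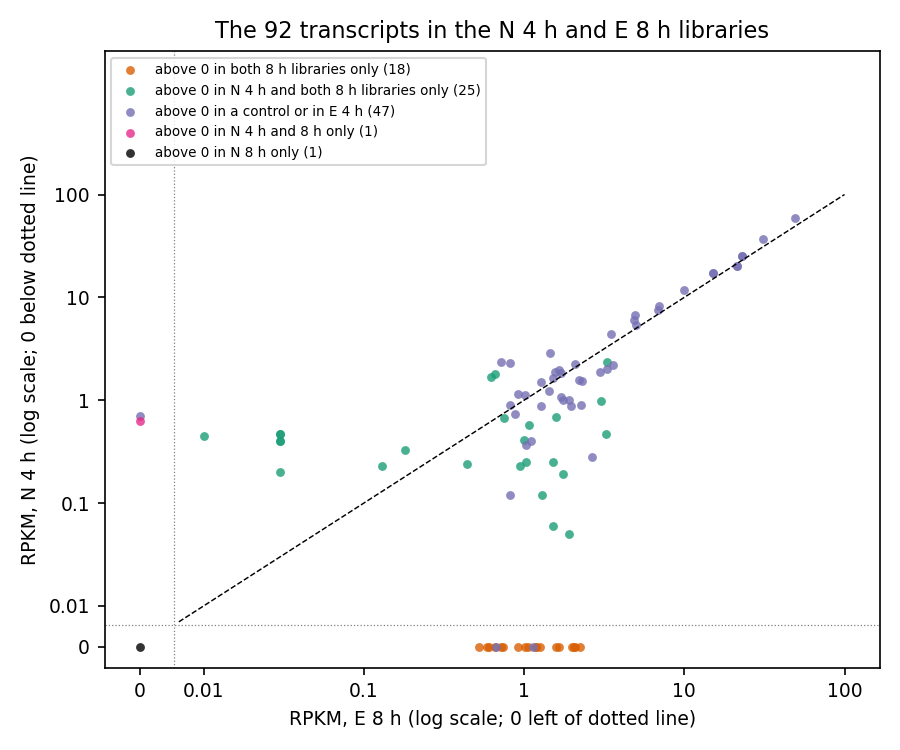
RPKM of the 92 transcripts in the N 4 h library against the E 8 h library, on log scales with 0 drawn outside the dotted lines and the diagonal dashed, coloured by the libraries in which a transcript was above 0. The most abundant members lie along the diagonal, the 18 above 0 in both 8 h libraries alone lie along the bottom, and a few lie far left at 0.03 RPKM or less in the E 8 h library.

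A set of 11 members, chosen after their values were seen, stood furthest from E at 8 h. They comprised 3 listed at 0 in the E 8 h library and 8 at least 100 times higher in the N 8 h than in the E 8 h library. Over the 89 members above 0 in the E library the median of this ratio was 13.5. The 3 at 0 were comp33618_c0_seq1, at 16.02 RPKM in the N 8 h and 0.63 RPKM in the N 4 h library, comp223642_c0_seq1, at 14.53 and 0.7 RPKM, and comp66047_c0_seq1. comp223642_c0_seq1 was above 0 in E leaves at 4 h, at 0.53 RPKM.

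In 2 components with several transcripts, each transcript was at 0.03 RPKM or less in the E 8 h library. The 5 transcripts of comp94390_c0 lay between 9.05 and 10.76 RPKM in the N 8 h library, between 0.39 and 0.46 RPKM in the N 4 h library, and between 0.01 and 0.03 RPKM in the E 8 h library. All 5 were at 0 in both controls and in the E 4 h library, and 3 of them met the level limit. Their summed level at 8 h was 49.98 RPKM in the N library and 0.09 RPKM in the E library. The 2 transcripts of comp88841_c0, both members, measured 12.33 and 12.17 RPKM in the N 8 h and 0.03 RPKM each in the E 8 h library. If reads were counted whole, the N 8 h level of comp94390_c0_seq4 rested on at least 617 reads.

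In other components a single transcript was scarce in E while its partners were not. comp123352_c0_seq4 had one of the largest ratios to the next library, 136, at 0, 0.33 and 44.76 RPKM in the N libraries and 0, 0 and 0.18 RPKM in the E control, 4 h and 8 h libraries. Its component, summed over 11 transcripts, measured 438.64 RPKM in the N 8 h and 111.07 RPKM in the E 8 h library. The highest transcript of that component, comp123352_c0_seq5, was no member, at 143.31 RPKM in the N 8 h and 42.04 RPKM in the E 8 h library. comp126167_c1_seq14 measured 31.14 RPKM in the N 8 h and 0.13 RPKM in the E 8 h library, against 448.48 and 99.26 RPKM for its component. comp123330_c1_seq5 measured 11.91 and 0.03 RPKM, against 138.42 and 34.67 RPKM for its component.

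Other members with large ratios to the next library came in pairs as well. comp44417_c0_seq1 measured 0, 1.78 and 65.74 RPKM in the N libraries and 0, 0 and 0.66 RPKM in the E libraries, a ratio of 36.9. comp103002_c0_seq1, of another component, measured 0, 1.67 and 61.3 RPKM in the N libraries and 0, 0 and 0.62 RPKM in the E libraries. comp31371_c0_seq1 and comp61548_c0_seq1 measured 34.44 and 32.19 RPKM in the N 8 h library and 1.03 and 0.94 RPKM in the E 8 h library. Both of these pairs were proportional within the distance of 0.02, but each had only 1 library at 2 RPKM or more.

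The 92 members belonged to 70 components. In 35 components the member was the only transcript, which took 38.0% of the members, beside 28.0% of all transcripts at 10 RPKM or more in the N 8 h library. There were 13 components with at least 2 members and 6 with at least 3. The highest members of these 6 were comp110667_c0_seq14 at 36.96 RPKM, comp107546_c0_seq2 at 27.21, comp123996_c0_seq8 at 90.21, comp94390_c0_seq1 at 10.76, comp95369_c0_seq8 at 23.33 and comp95793_c0_seq3 at 36.77 RPKM in the N 8 h library.

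Most other transcripts of the members' components were higher in the N 8 h library than in the N 4 h, N control and E 8 h libraries. Their own values placed them outside the rule, although they can share reads with the members. There were 255 of them, of which 109 reached 10 RPKM in the N 8 h library, beside 2.6% of all transcripts, and 35 were below 1 RPKM in all libraries. Ratios were taken on the log2(RPKM + 1) scale, which understates changes of low transcripts, over transcripts that reached 1 RPKM in one of the libraries compared. Against the N control, 203 of 206 were at least 2-fold higher in the N 8 h library, with a median log2 ratio of 2.94. Among all transcripts 27.5% were at least 2-fold higher and the median was 0.20. A partner at 0 in the library compared against meets the 2-fold limit by construction once it reaches 1 RPKM in the other. Such partners were not set aside, here or in the partner counts below, so these counts are a description.

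Against the N 4 h library 176 of 215 were at least 2-fold higher at 8 h, beside 10.9% of all transcripts, and the median log2 ratio was 2.71 beside -0.31. Against the E 8 h library 174 of 215 were at least 2-fold higher in the N 8 h library, beside 9.53% of all transcripts, and the median was 1.65 beside -0.24. The members' own median on this scale, 3.20, was set by the rule, which the partners by definition did not meet, so the order of these medians is no result. Within E 110 of 156 partners were at least 2-fold higher at 8 h than in the control, beside 18.8% of all transcripts. Between 4 and 8 h in E 101 of 158 were so, beside 8.86%, and after 4 h in E 14 of 27, beside 12.9%. The share was smaller after 4 h in N, with 25 of 70 higher, beside 20.7%, and 6 lower, beside 9.15%. In N over E 16 of 73 were higher at 4 h, beside 7.78%, and 7 of 12 in the controls, beside 5.28%.

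Summed over all transcripts, the 35 components with several transcripts were highest in the N 8 h library, with ratios to the next library from 2.58 to 37.1 and a median of 7.76. Of these, 9 passed the limit of 10 and 15 were below 5. These sums contain the members, which were chosen on these values, so the lead is a description. The lowest was comp113160_c0, with a sum of 112.27 RPKM in the N 8 h, 43.6 RPKM in the N 4 h and 27.93 RPKM in the E 8 h library. Its members comp113160_c0_seq19 and comp113160_c0_seq15 led the N 8 h library at 23.69 and 22.84 RPKM. In the E 8 h library they measured 1.66 and 1.56 RPKM, and the leading transcript was comp113160_c0_seq21 at 1.95 RPKM.

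The members took a larger part of their component in the N 8 h than in the E 8 h library in 30 of 35 components and a smaller part in 3, while all transcripts of the other 2 were members. The median share was 41.4% in the N 8 h and 17.9% in the E 8 h library, and 28.8% in the N 4 h library. The rule favours this order, because it demands a low E value of the member and not of its partners. In 13 of the 35 components the highest transcript differed between the N and the E 8 h library. The rule favours such a difference too, and its share among other components was not counted, so nothing is read from it. comp115513_c0_seq5 held 75.5% of its component in the N 8 h and 24.5% in the E 8 h library, and comp122128_c1_seq16 held 52.5% and 14.9% of its own.

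**Figure D5:**
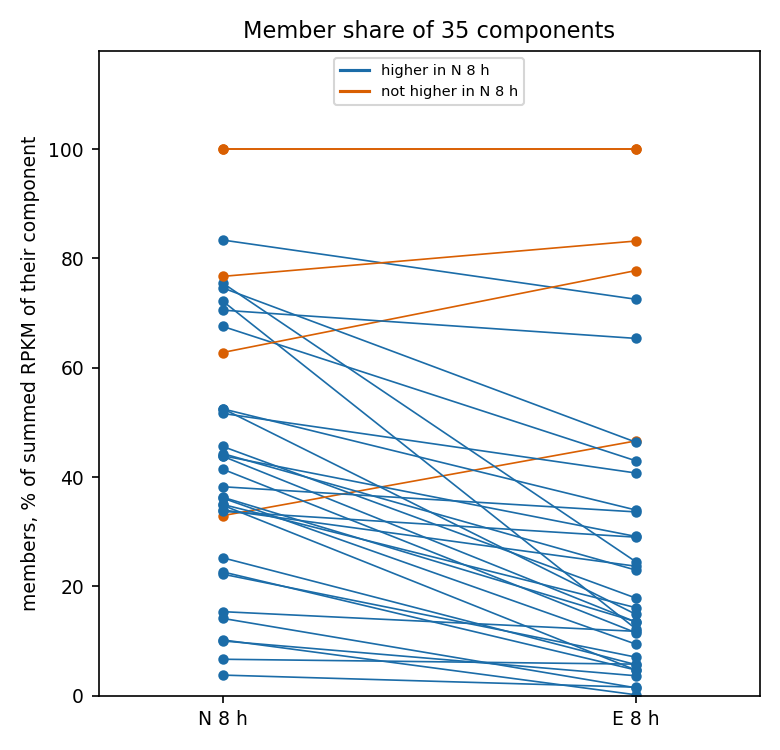
Share of each component's summed RPKM held by its members, in percent, in the N 8 h and the E 8 h library, with 1 line for each of the 35 components that have several transcripts. Lines fall to the right (blue) in 30 components, rise in 3, and are flat at 100% in the 2 whose transcripts were all members.

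Among the other heated libraries, the members' median level was highest in E 8 h, then N 4 h, then E 4 h. All transcripts had the same order of medians, at 0.62, 0.61 and 0.44 RPKM, so the order is not particular to the members. The rule bounds these libraries only from above. In E leaves 89 members were higher at 8 h than in the control, 0 were lower and 3 were at 0 in both, beside 61.3% of all transcripts higher and 34.1% lower. Of 62 members that reached 1 RPKM in one of them 57 were at least 2-fold higher at 8 h, beside 18.8% of all transcripts. Of these 57, 29 were at 0 in the control, and a transcript that passes the filter against 0 meets the 2-fold limit by construction. Of the 33 members above 0 in the control 28 were at least 2-fold higher, with a median log2 ratio of 1.55, beside 14.6% of all transcripts above 0 there. All 62, these 33 among them, passed the filter through their E 8 h level. The filter thus favours the higher direction, and these shares are a description.

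Between 4 and 8 h in E leaves 89 members were higher at 8 h and 1 was lower, beside 63.8% of all transcripts higher and 30.7% lower. At least 2-fold higher at 8 h were 53 of 62, beside 8.86% of all transcripts. With the 29 at 0 at 4 h set aside they were 24 of 33, beside 5.76%. Here too all 62 passed the filter through their E 8 h level, which favours the higher direction. The comparison with the control shares its 8 h library with this one, so these counts are not independent.

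After 4 h in N leaves 67 members were higher than in the control and 5 were lower, with 20 at 0 in both, beside 64.1% of all transcripts higher and 30.5% lower. At least 2-fold higher were 27 of 39, beside 20.7% of all transcripts, and 15 of 27 among those above 0 in the control, beside 16.6%. After 4 h in E leaves 34 members were higher than in the control and 10 were lower, with 48 at 0 in both, beside 48.5% of all transcripts higher and 45.1% lower. Only 14 members reached 1 RPKM in either library there, and 9 of them were at least 2-fold higher, beside 12.9% of all transcripts. Among the 12 above 0 in the control 7 were higher, beside 11.2%. Of the 39 members compared in N 38 reached 1 RPKM at 4 h, and of the 14 in E 12 did. The filter thus favours the higher direction here as well. On this scale and with this filter 0 members were at least 2-fold lower at 4 h than in the control, beside 9.15% of all transcripts in N and 10.8% in E. In E at 8 h 0 were so, beside 8.25% against the control and 2.22% against 4 h. These zeros depend on the pseudocount and the filter. With 1 RPKM added, a 2-fold fall needs at least 1 RPKM in the library compared against. Only 6 members reached that in the N control, 3 in the E control and 12 in the E 4 h library. For all other members no such fall was possible, so nothing is read from these zeros. With a pseudocount of 0.1 RPKM 1 of 14 was lower after 4 h in E, and comp103850_c1_seq2, chosen after its values were seen, measured 0.5 RPKM at 4 h there, against 1.25 RPKM in the control. Without the filter 1 member was lower after 4 h in N, 2 after 4 h in E and 1 in E between 4 and 8 h, of 92 each.

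At 4 h 68 members were higher in N than in E leaves and 4 were lower, with 20 at 0 in both, beside 63.6% of all transcripts higher and 30.1% lower. At least 2-fold higher in the N 4 h library were 24 of 39, beside 7.78% of all transcripts. Among those above 0 in the E 4 h library they were 18 of 33, beside 5.25%. Of the 39, 38 reached 1 RPKM in the N 4 h library, so the filter favours this direction. At least 2-fold lower in N were 0 members at 4 h, beside 3.19% of all transcripts, and 0 in the controls, beside 3.22%. Such a fall needs at least 1 RPKM in the E library, which only 12 members reached at 4 h and 3 in the control. Nothing is therefore read from these zeros. A pseudocount of 0.1 RPKM without the filter gave 1 of 92 in each comparison. In the controls 28 members were higher in N and 11 in E leaves, with 53 at 0 in both, beside 32.9% of all transcripts higher in N and 58% lower. Only 6 members reached 1 RPKM in a control, all above 0 in both, of which 2 were at least 2-fold higher in N, beside 5.28% of all transcripts and 4.33% of those above 0 in the E control. With so few members above the filter, these counts give little on the unheated genotypes. None of these counts could be tested, because each rests on 1 library per group.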

How the data were processed

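Values were RPKM with 2 decimals, as the authors deposited them and per the file headers, with 1 column per library for 421554 transcripts. For the assembler, the aligner, the read counter and the annotation, no source used here names a program or version. Libraries were grouped by the labels' titles, 1 per group, so no test was run. The members and lists were chosen with earlier results of these data known. Relative depth came from the spacing of low values (largest disagreement between pairs 0.00204 on the log2 scale), a step tested on simulated data. The total number of reads is unknown, so no counting interval is given. Transcripts named in the text are those highest in the N 8 h library, with the largest ratios, nearest each limit, highest in components with 3 or more members, or highest in another library; partners and members of groups described by component were added after their values were seen. Alternatives were a pseudocount of 0.1, a filter of 5 RPKM, no filter, and median-of-ratios and upper-quartile scaling. Gene lists were not applied, since 0 identifiers matched the 99454 genes of the reference table. Python 3.11.15, numpy 2.4.6, pandas 2.3.3 and matplotlib 3.10.9 were used.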

Additional observations from a re-analysis of the deposited data

How the results depend on the processing

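The number of transcripts that met the rule, 92 as deposited, depended on each choice tried except a pseudocount of 0.1. It was 183 with a level of 5 RPKM and 50 with 20 RPKM, 437 with a fold limit of 5 and 22 with 20, and 27 with 1 RPKM added to all values. Median-of-ratios scaling gave 304 and upper-quartile scaling 158, and all 92 were among both. Both scalings divide the N 4 h and E 8 h libraries, which came next highest, by their largest factors (1.32 and 1.25, and 1.20 each). They divide the N 8 h library by 0.795 and 0.962, which raises its values against both limits. RPKM summed over components gave 45 components.

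A filter of 5 RPKM left fewer members to compare. At least 2-fold higher were then 12 of 14 (N 4 h against control), 2 of 2 (E 4 h against control), 11 of 11 (E 8 h against control and against 4 h), 13 of 14 (N against E at 4 h) and 1 of 1 (N against E control). With no filter and a pseudocount of 0.1 the counts of 92 were 58 (N 4 h against control), 24 (E 4 h against control), 59 (N against E at 4 h) and 13 (controls). Of the 54 values recomputed for planned results 36 stayed within 1.5 times, among them every one for the partners in the N 8 h library. No paired analysis was possible because each group held 1 library.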
